A study of Mus musculus with 8 samples.

Results

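The BMP and TGF-beta pathway is described here in the E18.5 mouse heart as a list of 47 genes, which covers ligands, receptors, Smads, Smad target genes, extracellular inhibitors and latent TGF-beta binding proteins. Members were chosen by gene name, as all non-control probes whose accession belongs to a listed gene, which gave 68 probes of the 47 genes among 19096 named genes on the array. RNA from whole hearts of 4 wild-type (WT) and 4 SIRT1 knockout (SIRT1 KO) embryos was labelled with Cy3 and hybridized to mouse genome arrays of Agilent's one-color design, each array taking a single heart. The embryos were labelled with the C57BL/6 strain, given as C57BL/6J in the study's methods, came from dams on a chow diet, and received no treatment. The SIRT1 KO allele is a whole-body germ-line deletion carried by every cell of the embryo, the embryos came from heterozygous intercrosses, and both sexes were used. SIRT1 is an NAD-dependent protein deacetylase, and the comparison asks which of these signaling genes differ in RNA level when it is deleted.

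TGF-beta family ligands are secreted dimers that bring type II and type I serine/threonine kinase receptors together, and the type I receptor then phosphorylates receptor Smads, which enter the nucleus with Smad4. BMP ligands act mainly through Smad1, Smad5 and Smad9, while TGF-beta and activin ligands act mainly through Smad2 and Smad3. Extracellular proteins such as chordin, noggin and the follistatins hold ligands away from their receptors, and latent TGF-beta binding proteins tether newly made TGF-beta to the matrix. In the developing heart these signals are known for cushion and valve formation, for trabeculation and for the growth of the outflow tract.

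Values are log2 of the processed spot signal minus the 75th percentile of the array, so that a value of 0 lies at the 75th percentile, and fold changes are SIRT1 KO minus WT on this log2 scale. That percentile was 939 to 1033 intensity units for WT and 777 to 906 for SIRT1 KO hearts, and between 24489 and 26733 probes per array were well above background, with 0 saturated spots. Precision is limited by having 4 arrays per genotype. WT hearts were all on 1 slide and SIRT1 KO hearts all on another, scanned on another day, so an effect of the slide or of the day of scanning and one of genotype cannot be told apart in any value below. The labels do not say that hearts of 1 genotype came from separate litters, and p-values measure the spread between these 4 hearts. Neither of the *Sirt1* probes was lower past the threshold in the SIRT1 KO arrays, with 0.54 on probe A_52_P358612 (standard error, SE, 0.11, limma adjusted p = 0.0323) and -0.11 on probe A_51_P141152 (SE 0.11, limma adjusted p = 0.589). Directions are therefore those of the hearts labelled SIRT1 KO against the hearts labelled WT, and where these probes lie relative to the deleted part is not analysed here. All 12 cardiomyocyte markers checked were measured in these hearts, and none of the 4 lung markers was well above background on 4 or more arrays.

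*Chrd* and *Bmp5* were the member genes that rose in the SIRT1 KO hearts on the brightest probe of a gene, by 1.64-fold and 1.41-fold. *Ltbp3* rose 1.53-fold on the dimmer of its probes, and no member gene fell past the threshold. No receptor, Smad or Id gene passed the threshold. Of the 47 genes, 40 were well above background on at least 4 arrays on some probe and were tested, and all 40 were well above background on all 8 arrays on their brightest probe. At an adjusted p under 0.05 from limma, 2 of the 40 genes were called (5%), both higher. The same rule called 4.58% of the brightest probes of all 13594 named genes tested, 3.69% higher and 0.897% lower, and 4.88% of all 25615 probes tested. The members' share is thus near the background. Over every tested member probe, 3 of 60 were called. An unadjusted p under 0.05 was reached by 5 of the 40 genes, beside 20.4% of the named genes. The median log2 fold change of the 40 genes was 0.04, beside a median of 0.01 over all probes tested, and 26 of the 40 were above 0 and 14 below, beside 48.4% of the named genes above 0. On the brightest probes fold changes ran from -0.40 for *Inhba* to 0.72 for *Ltbp2*. How many members lie above 0 depended on the scaling between arrays, with 11 of 40 above 0 under median scaling, where the median of all probes moved to -0.12, and 7 of 40 without scaling, where it moved to -0.21. The share of all calls that were higher was likewise 81.4% as reported, 70.5% under cyclic loess, 63.9% under quantile normalization, 35.5% under median scaling and 10.1% without scaling.

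**Figure D1:**
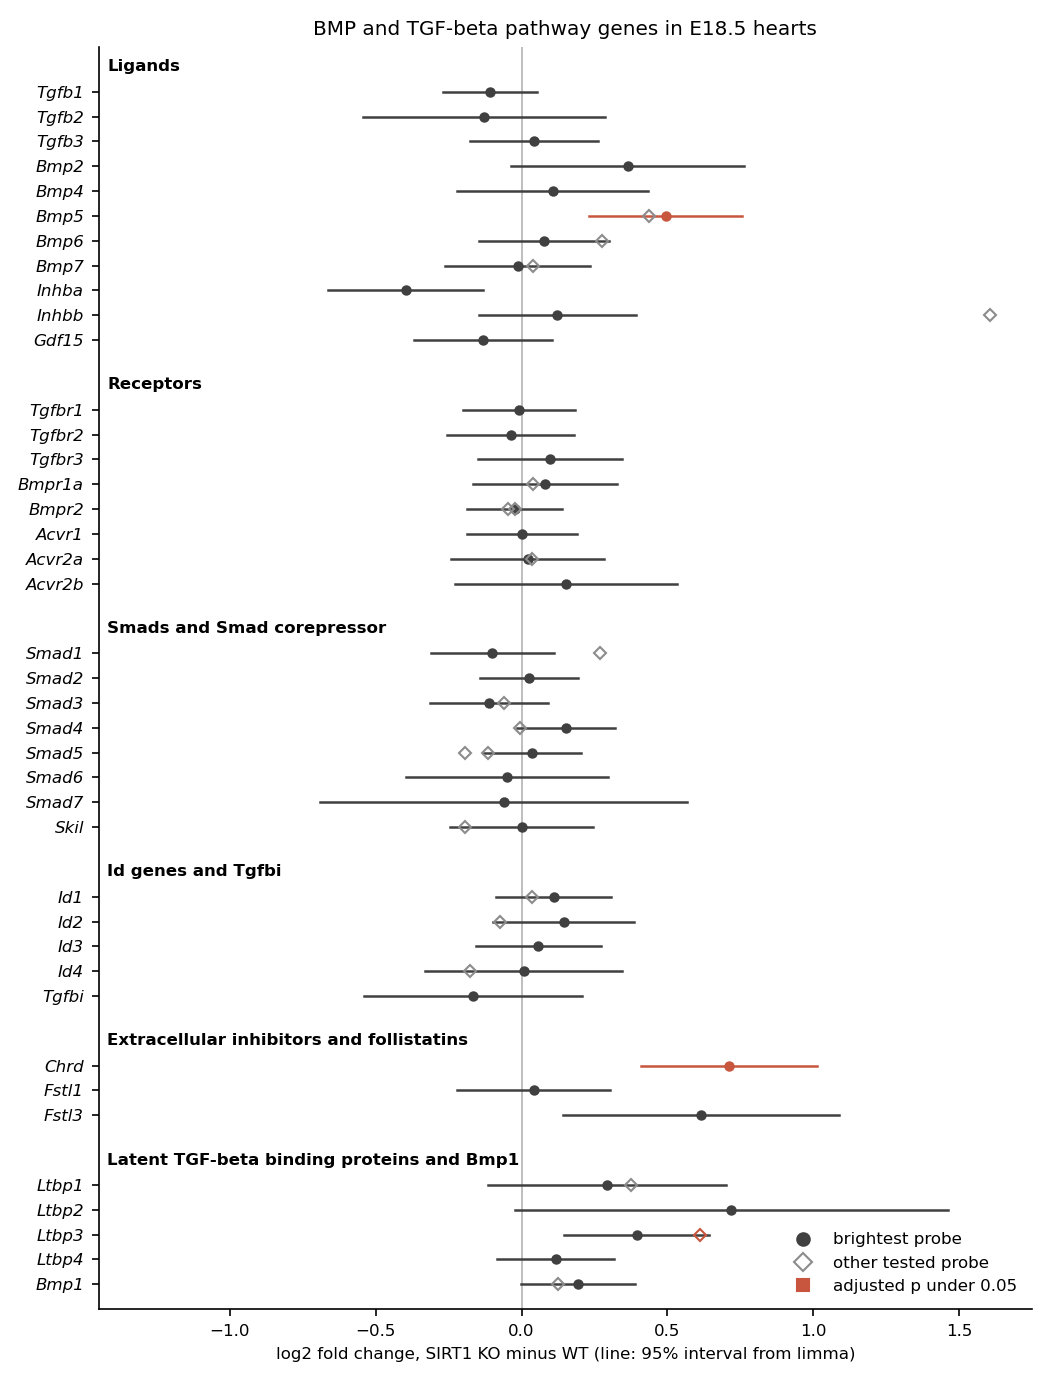
Log2 fold change (x axis, SIRT1 KO minus WT) of the 40 tested BMP and TGF-beta pathway genes (y axis, by role). Filled points are the brightest probe of a gene with its 95% confidence interval (CI) from limma, open diamonds are its other tested probes, and red marks an adjusted p under 0.05, as for *Bmp5* at 0.49, *Chrd* at 0.71 and the dimmer *Ltbp3* probe at 0.61. Receptors lie between -0.04 and 0.15 and Smads between -0.11 and 0.15 on their brightest probes.

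Promoter sequences of the called genes are shown first, beside that of *Id3*, a gene known as a target of BMP Smads, because Smads bind short motifs that can be read directly. Each sequence is the 250 bases before the RefSeq transcript start in GRCm38.p6, 5′ to 3′ on the strand of the gene, with matches to CAGAC or its reverse complement GTCTG (the core of the Smad-binding element) and to GGCGCC (a GC-rich motif of BMP-responsive promoters, the same on both strands) in capitals. *Chrd* lies at chr16:20732877-20733126 on the plus strand, *Bmp5* at chr9:75775115-75775364 on the plus strand, *Ltbp3* at chr19:5740650-5740899 on the plus strand and *Id3* at chr4:136143572-136143821 on the plus strand.
Chrd: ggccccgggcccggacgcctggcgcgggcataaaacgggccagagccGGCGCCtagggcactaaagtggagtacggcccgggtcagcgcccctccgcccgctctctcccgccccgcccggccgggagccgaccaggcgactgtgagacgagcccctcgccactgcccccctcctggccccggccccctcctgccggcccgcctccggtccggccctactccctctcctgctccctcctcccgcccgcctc
Bmp5: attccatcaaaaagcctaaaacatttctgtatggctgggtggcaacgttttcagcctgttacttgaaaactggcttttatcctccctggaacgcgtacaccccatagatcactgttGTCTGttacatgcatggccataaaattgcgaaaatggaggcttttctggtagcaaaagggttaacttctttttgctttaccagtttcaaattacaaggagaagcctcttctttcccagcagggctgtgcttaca
Ltbp3: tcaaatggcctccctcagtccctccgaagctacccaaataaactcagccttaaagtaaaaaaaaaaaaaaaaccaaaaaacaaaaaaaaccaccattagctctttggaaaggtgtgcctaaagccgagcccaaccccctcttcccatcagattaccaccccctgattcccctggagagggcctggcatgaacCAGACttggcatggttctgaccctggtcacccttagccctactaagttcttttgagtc
Id3: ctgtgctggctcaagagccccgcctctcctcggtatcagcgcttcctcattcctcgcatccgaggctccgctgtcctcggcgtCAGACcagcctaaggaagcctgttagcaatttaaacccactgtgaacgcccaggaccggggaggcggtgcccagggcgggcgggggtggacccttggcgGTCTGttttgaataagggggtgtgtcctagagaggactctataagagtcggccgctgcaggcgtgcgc

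The *Chrd* window is 78% G and C and holds 1 GGCGCC and 0 CAGAC matches. The *Bmp5* window is 42.8% G and C and the *Ltbp3* window 47.2%, and each holds 1 CAGAC match and 0 GGCGCC matches. The *Id3* window holds 2 CAGAC matches. RefSeq windows were matched for 35 of the 47 genes, 44 windows in all because a gene can have several starts. CAGAC on either strand was in 47.7% of the members' windows, in 42.2% of all 32851 windows of this length and in 40.7% of the windows of genes tested here. GGCGCC was in 27.3% of the members' windows, in 9.59% of all windows and in 16.0% of those of tested genes. CACGTG, an E-box read for comparison, was in 11.4% of the members' windows, in 6.02% of all windows and in 8.03% of those of tested genes. No matches overlap in the 4 windows shown, and a match describes letters in this window only.

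Of the 12 ligand genes, 11 were tested. *Bmp5*, a ligand that acts beside *Bmp6* and *Bmp7* in one subgroup, rose. On its brightest probe (A_51_P516637) the WT hearts read -3.69, -3.43, -3.51 and -3.42 and the SIRT1 KO hearts -3.15, -2.80, -3.23 and -2.89. All 4 SIRT1 KO values lay above all 4 WT values, with SIRT1 KO replicate 3 the nearest to the WT hearts. The log2 fold change was 0.49 (SE 0.12, 95% CI 0.23 to 0.76, limma adjusted p = 0.045), and the exact two-sided permutation test gave p = 0.0286, the smallest that 4 against 4 hearts allow. Its other probe (A_52_P118356) had a fold change of 0.44 in the same direction (limma adjusted p = 0.344), with WT hearts at -5.89 to -4.54 and SIRT1 KO hearts at -4.92 to -4.47. The *Bmp5* call passed in 6 of 20 alternatives, which change the background correction (normexp), the scaling, the filter, the probe rule or the test, or leave out a heart. Leaving out each heart in turn kept it in 1 of 8 fits, that without SIRT1 KO replicate 3. Over all 20 the fold change was 0.27 to 0.57 and the limma adjusted p 0.0164 to 0.162.

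The other BMP ligands had smaller fold changes, and none passed the threshold. *Bmp2* and *Bmp4*, which signal from the myocardium and outflow tract to the cushions, read 0.36 (95% CI -0.03 to 0.76, limma adjusted p = 0.272) and 0.11 (-0.22 to 0.43). *Bmp2* read -5.25, -4.55, -4.87 and -4.86 in the WT hearts and -4.82, -4.12, -4.55 and -4.58 in the SIRT1 KO hearts, so the genotypes overlapped. The fold change lay between 0.14 (no scaling) and 0.48 in 20 alternatives, was 0.23 without SIRT1 KO replicate 2 and 0.24 without WT replicate 1, and passed under 2 of them, normexp (0.31, limma adjusted p = 0.0463) and the fit with a replicate block. *Bmp6* had a fold change of 0.08 and 0.28 on its probes, and *Bmp7* one of -0.01 and 0.04.

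*Tgfb1*, *Tgfb2* and *Tgfb3* encode the 3 TGF-beta isoforms, of which *Tgfb2* is known for its part in outflow and valve formation. Their fold changes were -0.11 (95% CI -0.27 to 0.05), -0.13 (-0.54 to 0.29) and 0.04 (-0.18 to 0.26). None passed the threshold, and *Tgfb2* had 1 WT heart at 1.11 while the other WT hearts read 0.41 to 0.50. Without scaling between arrays *Tgfb1* was called lower.

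*Inhba* encodes the beta A subunit of activin A and inhibin A. It had the lowest fold change of any member, on its 1 probe (A_51_P239750). The WT hearts read 0.72, 1.04, 0.58 and 0.77 and the SIRT1 KO hearts 0.44, 0.55, 0.19 and 0.35. The genotypes did not overlap, although WT replicate 3 and SIRT1 KO replicate 2 were separated by less than the spread within either genotype. The fold change was -0.40 (SE 0.12, 95% CI -0.66 to -0.13, exact two-sided permutation test p = 0.0286), and the adjusted p of 0.0946 from limma did not pass. It passed under 3 of 20 alternatives, median scaling (-0.53), no scaling (-0.62) and the fit with a replicate block (-0.40), and the fold change lay between -0.62 and -0.29 in all 20.

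*Inhbb*, the beta B subunit, differed between its probes. The brightest probe had a fold change of 0.12 (95% CI -0.15 to 0.39). The other probe (A_52_P152847), named here after its values were seen, read -3.18, -3.73, -4.69 and -3.82 in the WT hearts and -2.73, -0.66, -2.23 and -3.37 in the SIRT1 KO hearts, a fold change of 1.60 (SE 0.54, 95% CI 0.38 to 2.83, limma adjusted p = 0.135). It passed under 1 of 19 alternatives, normexp, with 1.13 (limma adjusted p = 0.0437), and read 1.08 without SIRT1 KO replicate 2. SIRT1 KO replicate 2 stood above the other SIRT1 KO hearts there, and replicate 4 lay within the WT range. *Gdf15*, a ligand induced by cell stress, had a fold change of -0.13 (-0.37 to 0.11). *Mstn*, encoding myostatin, was well above background on 0 of 4 WT arrays and on 2 of 4 SIRT1 KO arrays, and it was not tested.

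**Figure D2:**
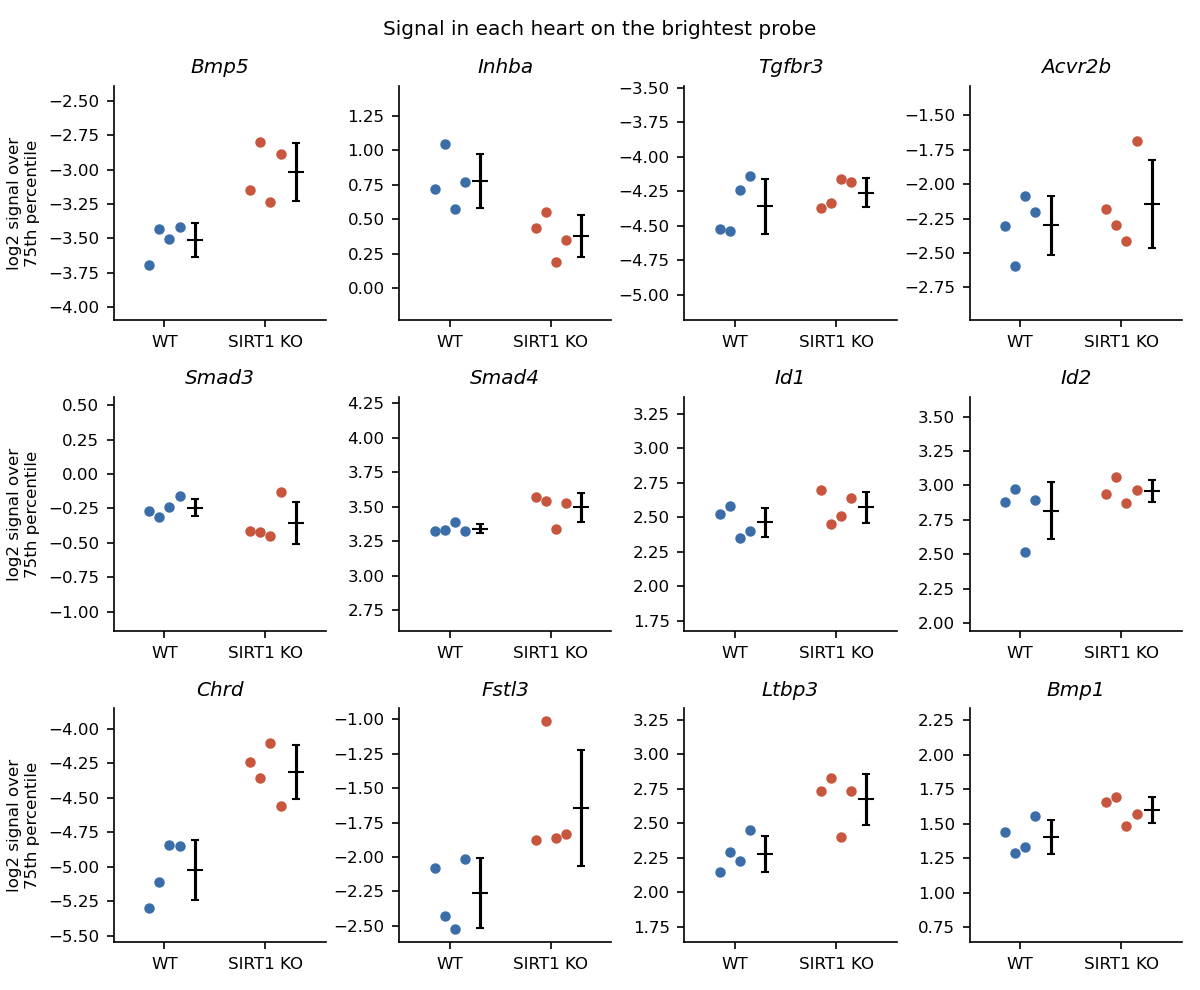
Log2 signal over the 75th percentile of the array (y axis) in each WT and SIRT1 KO heart (points, 4 per genotype) on the brightest probe, for the 12 genes that passed the threshold on some probe, did not overlap between genotypes, or had 1 of the 2 smallest p of their role. Black bars are the mean and SD, and genotypes are apart for *Bmp5*, *Inhba*, *Chrd* and *Fstl3* and overlap for the others.

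Receptor transcripts were close between the genotypes. Of the 10 receptor genes 8 were tested, none passed the threshold, and fold changes lay between -0.04 and 0.15, with 95% CIs between -0.25 and 0.53. The median of the 8 was 0.01, with 5 above 0 as reported, 4 under quantile normalization, 1 under median scaling and 0 without scaling. *Acvr2b*, a type II receptor of activins, had the smallest p of the group. Its WT hearts read -2.31, -2.59, -2.09 and -2.20 and its SIRT1 KO hearts -2.18, -2.30, -2.42 and -1.69, so that only SIRT1 KO replicate 4 lay above the WT range. The fold change of 0.15 (SE 0.17, 95% CI -0.23 to 0.53, limma adjusted p = 0.637) fell to -0.00019 without that heart.

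*Tgfbr3*, encoding the co-receptor betaglycan, read -4.52, -4.53, -4.24 and -4.14 in the WT hearts and -4.37, -4.33, -4.16 and -4.18 in the SIRT1 KO hearts, with a fold change of 0.10 (SE 0.11, 95% CI -0.15 to 0.35, limma adjusted p = 0.646). All SIRT1 KO values lay within the WT range, the fold change was 0.04 without WT replicate 1 or 2 and 0.17 without WT replicate 4, and the sign turned under cyclic loess, quantile normalization, median scaling and no scaling. The type I receptors *Tgfbr1* (-0.01, 95% CI -0.20 to 0.18), *Bmpr1a* (0.08, -0.17 to 0.33) and *Acvr1* (0.00, -0.19 to 0.19) and the type II receptors *Tgfbr2* (-0.04, -0.25 to 0.18), *Bmpr2* (-0.02, -0.19 to 0.14) and *Acvr2a* (0.02, -0.24 to 0.28) had intervals on both sides of 0. *Bmpr1b* was well above background on 0 of 8 arrays and *Acvr1b* on 1 WT array, and neither was tested.

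The Smads, which carry the signal to the nucleus, and the Smad corepressor gene *Skil* likewise had no call among 8 tested genes, with fold changes from -0.11 to 0.15. For the receptor Smads and *Smad4* all 95% CIs lay between -0.31 and 0.32. *Smad4*, the partner shared by BMP and TGF-beta signals, had the smallest p. Its brightest probe (A_52_P611867) read 3.33, 3.33, 3.39 and 3.32 in the WT hearts and 3.57, 3.54, 3.34 and 3.52 in the SIRT1 KO hearts. SIRT1 KO replicate 3 lay within the WT range and the other 3 above it, with a fold change of 0.15 (SE 0.07, 95% CI -0.01 to 0.32, limma adjusted p = 0.27), while the other probe (A_51_P444740) had a fold change of -0.01.

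*Smad3*, a receptor Smad of TGF-beta and activin, read -0.27, -0.31, -0.24 and -0.16 in the WT hearts and -0.41, -0.42, -0.45 and -0.13 in the SIRT1 KO hearts. SIRT1 KO replicate 4 was the highest of the 8 hearts and the other 3 SIRT1 KO hearts were the lowest. The fold change was -0.11 (SE 0.09, 95% CI -0.31 to 0.09, limma adjusted p = 0.505), -0.19 without SIRT1 KO replicate 4, and among the alternatives it was called lower only without scaling, with -0.33. *Smad2*, the other TGF-beta receptor Smad, had a fold change of 0.03, and the BMP receptor Smads *Smad1* and *Smad5* of -0.10 and 0.04 on their brightest probes, with 0.27 on the other *Smad1* probe and -0.11 and -0.19 on the other *Smad5* probes. The inhibitory Smads *Smad6* and *Smad7*, themselves induced by these pathways as feedback, had fold changes of -0.05 (95% CI -0.40 to 0.30) and -0.06 (-0.69 to 0.57). *Smad7* was spread within both genotypes, at 0.59, 0.03, -0.12 and 0.22 in the WT hearts and 0.50, -0.29, -0.46 and 0.75 in the SIRT1 KO hearts. *Skil* read 0.00 on its brightest probe and -0.19 on the other (limma adjusted p = 0.218), and *Smad9* was well above background on 0 of 8 arrays and was not tested.

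The Id genes, which encode inhibitors of basic helix-loop-helix factors and are the best known transcriptional targets of BMP Smads, did not pass the threshold. Their fold changes on the brightest probe were 0.11 for *Id1*, 0.14 for *Id2*, 0.06 for *Id3* and 0.01 for *Id4*, with 95% CIs between -0.33 and 0.39. All 4 were above 0 as reported and under cyclic loess, 3 under quantile normalization, 2 under normexp, 1 under median scaling and 0 without scaling. *Id1* read 2.53, 2.58, 2.35 and 2.40 in the WT hearts and 2.70, 2.45, 2.51 and 2.64 in the SIRT1 KO hearts (SE 0.09, 95% CI -0.09 to 0.31, limma adjusted p = 0.496). *Id2* read 2.88, 2.98, 2.52 and 2.90 in the WT hearts and 2.94, 3.06, 2.87 and 2.97 in the SIRT1 KO hearts (SE 0.11, 95% CI -0.10 to 0.39, limma adjusted p = 0.471). For both genes the genotypes overlapped, and for *Id2* WT replicate 3 alone lay far below the rest, without which the fold change was 0.04. The other probes of *Id1*, *Id2* and *Id4* had fold changes of 0.04, -0.07 and -0.18. *Tgfbi*, a matrix protein induced by TGF-beta, had a fold change of -0.17 (-0.54 to 0.21).

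Among the extracellular inhibitors, *Chrd* rose and was the member with the smallest adjusted p on a brightest probe. *Chrd* encodes chordin, which binds BMP2, BMP4 and BMP7 and blocks their receptors until it is cleaved. Its 1 probe (A_51_P215975) read -5.30, -5.11, -4.85 and -4.85 in the WT hearts and -4.24, -4.36, -4.10 and -4.56 in the SIRT1 KO hearts. These are dim spots, although the probe was well above background on 4 of 4 WT and 4 of 4 SIRT1 KO arrays. All SIRT1 KO hearts lay above all WT hearts, with SIRT1 KO replicate 4 the lowest and SIRT1 KO replicate 3 the highest of them. The log2 fold change was 0.71 (SE 0.13, 95% CI 0.41 to 1.01, limma adjusted p = 0.0196, exact two-sided permutation test p = 0.0286). It kept its sign in 20 of 20 alternatives, with 0.37 (normexp) to 0.79, and passed in 14, with limma adjusted p from 0.0123 to 0.0789. The call was lost without SIRT1 KO replicate 1 (limma adjusted p = 0.058) and without WT replicate 2 (limma adjusted p = 0.0628), and under cyclic loess, quantile normalization, normexp and the methods' analysis of variance.

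*Fstl3*, a follistatin-like protein that binds activin and myostatin, also had SIRT1 KO values above all WT values, without a call. It read -2.08, -2.42, -2.52 and -2.01 in the WT hearts and -1.88, -1.01, -1.87 and -1.83 in the SIRT1 KO hearts. SIRT1 KO replicate 2 stood apart and the other 3 lay just above the highest WT heart. The fold change was 0.61 (SE 0.21, 95% CI 0.14 to 1.09, limma adjusted p = 0.138, exact two-sided permutation test p = 0.0286), and 0.40 without SIRT1 KO replicate 2. It passed under 1 of 20 alternatives, normexp. *Fstl1*, a secreted glycoprotein of the epicardium and mesenchyme, had a fold change of 0.04 (-0.22 to 0.30). *Nog* and *Grem1*, which encode the BMP antagonists noggin and gremlin, were well above background on 0 of 8 arrays, and *Fst*, encoding follistatin, on 2 SIRT1 KO arrays, and none of the 3 was tested.

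The latent TGF-beta binding proteins and *Bmp1* had fold changes above 0 on all 8 tested probes. *Bmp1* encodes a metalloprotease, not a BMP-type ligand, which cleaves chordin, procollagens and the matrix anchor of latent TGF-beta. On the brightest probes the median of the 5 genes was 0.29, with 0.19 to 0.42 when 1 heart was left out (0.19 without WT replicate 2), 0.16 under median scaling and 0.07 without scaling. Of these genes 5 of 5 were above 0 as reported, under cyclic loess, quantile normalization and normexp and with any 1 heart left out, 4 of 5 under median scaling and 3 of 5 without scaling. Relative to the median of all probes tested, 5 of 5 were higher as reported and under cyclic loess, quantile normalization and normexp. Median scaling and no scaling move every probe by the same amount, so they cannot change this count. None of the 5 brightest probes passed the threshold, and *Ltbp3* passed on its dimmer probe.

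*Ltbp3* encodes a binding protein of latent TGF-beta. Its brightest probe (A_51_P233101) read 2.15, 2.29, 2.23 and 2.45 in the WT hearts and 2.73, 2.83, 2.40 and 2.73 in the SIRT1 KO hearts. SIRT1 KO replicate 3 lay below WT replicate 4 and the other 3 SIRT1 KO hearts above all WT hearts, with a fold change of 0.39 (SE 0.11, 95% CI 0.14 to 0.64, limma adjusted p = 0.0804, exact two-sided permutation test p = 0.0571). The dimmer probe (A_52_P652936) read -2.63, -2.87, -2.87 and -2.69 in the WT hearts and -2.07, -1.97, -2.42 and -2.15 in the SIRT1 KO hearts. Genotypes did not overlap there, and the fold change was 0.61 (SE 0.11, 95% CI 0.36 to 0.86, limma adjusted p = 0.0167, exact two-sided permutation test p = 0.0286). SIRT1 KO replicate 3 was the lowest SIRT1 KO heart on both probes. The dimmer probe passed in 14 of 19 alternatives (0.39 to 0.70), and lost the call without SIRT1 KO replicate 1, without WT replicate 2, without WT replicate 3 (limma adjusted p = 0.0519, 0.0545 and 0.0566), without scaling and under the methods' analysis of variance. The brightest probe passed in 5 of 20 alternatives, among them the fit without SIRT1 KO replicate 3.

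*Ltbp2*, which lies on elastic fibres, had the highest fold change of the members on their brightest probes, 0.72, but with a wide spread. It read -0.68, 0.57, 0.00 and 0.56 in the WT hearts and 0.91, 1.50, 0.24 and 0.67 in the SIRT1 KO hearts (SE 0.33, 95% CI -0.02 to 1.46, limma adjusted p = 0.246). SIRT1 KO replicate 3 lay below 2 of the WT hearts. With SIRT1 KO replicate 2 left out the fold change was 0.50, and with WT replicate 1 left out 0.45, both lower than that of *Chrd* in the same fits (0.73 and 0.62). *Ltbp1* had fold changes of 0.29 (95% CI -0.11 to 0.70) and 0.38 (-0.02 to 0.77) on its probes, and *Ltbp4* one of 0.12 (-0.08 to 0.32). *Bmp1* read 1.44, 1.29, 1.33 and 1.56 in the WT hearts and 1.66, 1.69, 1.48 and 1.57 in the SIRT1 KO hearts. Only SIRT1 KO replicate 3 was within the WT range, and the fold change was 0.20 (SE 0.09, 95% CI -0.00035 to 0.39, limma adjusted p = 0.233), with 0.13 on the other probe.

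**Figure D3:**
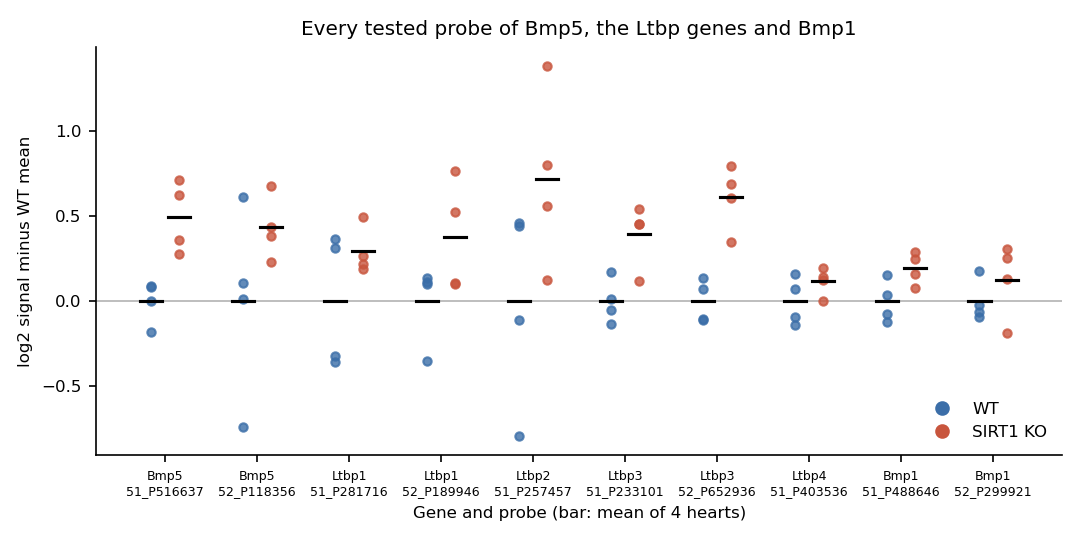
Log2 signal minus the WT mean (y axis) of every tested probe of *Bmp5*, the Ltbp genes and *Bmp1* (x axis, gene and the last part of the probe name). Points are hearts and black bars are the mean of 4 hearts; all 8 probes of the Ltbp genes and *Bmp1* have a SIRT1 KO mean above the WT mean, and genotypes are apart only for the brightest *Bmp5* probe and the dimmer *Ltbp3* probe.

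Further features of the members are given as descriptions, since the list was made with earlier results of these data known. On the brightest probes, 4 of 40 genes did not overlap between genotypes (10%), beside 14% of all named genes. *Bmp5*, *Chrd* and *Fstl3* were higher, 3 of 40 beside 8.39%, and *Inhba* was lower, 1 of 40 beside 5.61%. Where a gene had several tested probes, 12 of 18 genes had 1 sign on all of them, and 22 genes rested on 1 tested probe. Calls lay among dim probes. When the named genes were ranked by mean signal and divided into 3 parts of equal size, 2 of 12 members were called in the dimmest part, 0 of 12 in the middle and 0 of 16 in the brightest, beside 10%, 2.52% and 1.19% of all named genes in these parts. With no filter on dim probes, the median over the array was 0.09, beside 0.01 with the filter. The part of dim signal in the *Chrd* and *Bmp5* values was not tested.

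Single hearts also stood out over many members. SIRT1 KO replicate 2 was the highest of the 8 hearts for 14 of 40 genes (35%), beside 11.2% of the named genes, and WT replicate 1 was the lowest for 12 of 40 (30%), beside 11.3%. WT replicate 3 was the lowest for 9 of 40 (22.5%), beside 8.36%. SIRT1 KO replicate 3 was the lowest for 8 of 40 (20%), beside 9.19%, and WT replicate 2 the highest for 8 of 40 (20%), beside 14.8%. On brightest probes, the called member gene without SIRT1 KO replicate 2 was *Chrd* alone. The same held without SIRT1 KO replicate 4 or without WT replicate 1, 3 or 4. In these fits the dimmer *Ltbp3* probe also kept its call, except without WT replicate 3.

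The cell content of the hearts was compared through marker lists. None of the 12 cardiomyocyte, 8 endothelial, 8 fibroblast, 6 epicardial, 4 smooth muscle or 6 macrophage markers passed the threshold. The log2 of the summed signal of the epicardial markers was 4.11 to 4.38 in the WT hearts and 3.49 to 4.08 in the SIRT1 KO hearts. These ranges did not overlap, but WT replicate 1 (4.11) and SIRT1 KO replicate 2 (4.08) lay close. Among single named genes 14% did not overlap between genotypes, 5.61% with SIRT1 KO lower. Of 6 liver markers 4 were measured, with 0 called. The log2 of their summed signal was 1.78 to 3.49 in the WT hearts and 2.04 to 5.61 in the SIRT1 KO hearts, highest in SIRT1 KO replicates 1 and 4. Such a sum is weighted to the brightest marker of a list. Of the erythroid markers 1 of 6 was higher, and of the skeletal muscle markers 1 of the 4 measured. Their part in the values of *Bmp5*, *Chrd*, *Ltbp3* and the other members was not tested, and in whole hearts fewer cells of a type and less RNA per cell cannot be told apart.

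The wider pathway was read from a list of 97 further genes, 91 with a named probe and 73 tested. At an adjusted p under 0.05 from limma 9 of the 73 were called on the brightest probe (12.3%), 7 higher and 2 lower, beside 4.58% of all named genes. The count was 6 when a probe had to be well above background on all 8 arrays, where 5.06% of all 23404 probes tested were called. It also fell with a replicate block, as given further below. The median log2 fold change of the 73 was 0.02, with 38 above 0 and 35 below. By the same 3 parts of signal, 6 of 26 genes were called in the dimmest part, 3 of 28 in the middle and 0 of 19 in the brightest, beside 10%, 2.52% and 1.19% of all named genes. On dimmer probes *Sost*, a BMP and Wnt antagonist, and *Fn1*, encoding fibronectin, were also called (0.86 and -0.47, limma adjusted p = 0.0378 and 0.0442), while their brightest probes read -0.40 and -0.38 and did not pass.

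Among the further ligands, 4 of 11 tested genes were called, beside 4.58% of all named genes. All 4 lay in the dimmest part of signal, where 10% of all named genes were called. Where all 8 arrays had to be well above background, *Gdf7* and *Gdf9* were called and the probes of *Gdf6* and *Gdf11* were not tested. *Gdf7*, a BMP-type ligand of the roof plate and tendon, rose most, from -4.32, -4.13, -3.88 and -3.74 in the WT hearts to -3.02, -2.86, -2.96 and -2.77 in the SIRT1 KO hearts. The genotypes were well apart, with a fold change of 1.12 (SE 0.13, limma adjusted p = 0.00281), and it passed in 20 of 20 alternatives with 0.59 (normexp) to 1.21. *Gdf11*, which patterns the axis, rose by 0.71 (limma adjusted p = 0.0133) and passed in 16 of 19 alternatives, 8 of 8 with 1 heart left out, with 0.34 (normexp) to 0.78. Its probe was well above background on 2 of 4 WT arrays and on 4 of 4 SIRT1 KO arrays, so it met the filter through the SIRT1 KO arrays and its WT level rests on dim spots. *Gdf9*, known from the oocyte, rose by 0.44 (limma adjusted p = 0.0423) and passed in 8 of 20, 1 of 8 with 1 heart left out, with 0.22 (no scaling) to 0.53. *Gdf6*, a joint and bone ligand, fell by 0.67 on the log2 scale (limma adjusted p = 0.0351), passed in 9 of 19 alternatives, 3 of 8 with 1 heart left out, and turned to 0.02 under normexp. The *Gdf6* probe was well above background on 4 of 4 WT arrays and on 3 of 4 SIRT1 KO arrays, where it was dimmer.

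In the other roles calls were fewer. Smad regulators and partners gave 1 of 19 (5.26%), near the 4.58% of all named genes. Receptors and co-receptors gave 1 of 8 (12.5%), and so did extracellular modulators. *Foxh1*, a DNA-binding partner of Smad2 and Smad3 in Nodal signaling, was the 1 called gene of 19 Smad regulators and partners. It read 0.58, 0.47, 0.28 and 0.45 in the WT hearts and 0.93, 0.94, 1.15 and 1.03 in the SIRT1 KO hearts. All SIRT1 KO hearts were above all WT hearts, with a fold change of 0.57 (SE 0.09, limma adjusted p = 0.00839), and it passed in 20 of 20 alternatives with 0.35 (no scaling) to 0.62. Among 8 receptors and co-receptors, *Cfc1*, a Nodal co-receptor of left-right patterning, rose by 0.51 (limma adjusted p = 0.0458) and passed in 3 of 19 alternatives, 0 of 8 with 1 heart left out, with 0.28 (quantile normalization) to 0.55. With a replicate block the *Cfc1* call was lost (limma adjusted p = 0.0817). It likewise met the filter through the SIRT1 KO arrays, being well above background on 2 of 4 WT and 4 of 4 SIRT1 KO arrays. Among 8 extracellular modulators, *Kcp*, a chordin-like protein, rose by 0.36 (limma adjusted p = 0.0382) and passed in 8 of 20, 1 of 8 with 1 heart left out, with 0.14 (no scaling) to 0.41.

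The target genes of the pathway gave 2 calls among 19 tested (10.5%), beside 4.58% of all named genes. *Msx2*, a homeobox gene induced by BMP signals, rose by 0.61 (limma adjusted p = 0.0221) and passed in 12 of 20 alternatives, 3 of 8 with 1 heart left out, with 0.39 (no scaling) to 0.69. *Cdkn1a*, a cell cycle inhibitor induced by TGF-beta and by other signals, fell by 0.34 on the log2 scale (limma adjusted p = 0.0372) and passed in 10 of 20 alternatives, 0 of 8 with 1 heart left out, with -0.56 (no scaling) to -0.29. With a replicate block the *Cdkn1a* call was lost (limma adjusted p = 0.08). None of the 8 tested genes of matrix storage and activation passed, and *Emilin1*, a matrix glycoprotein that restrains TGF-beta processing, had the smallest p of them, with a fold change of -0.11 (limma adjusted p = 0.439).

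**Figure D4:**
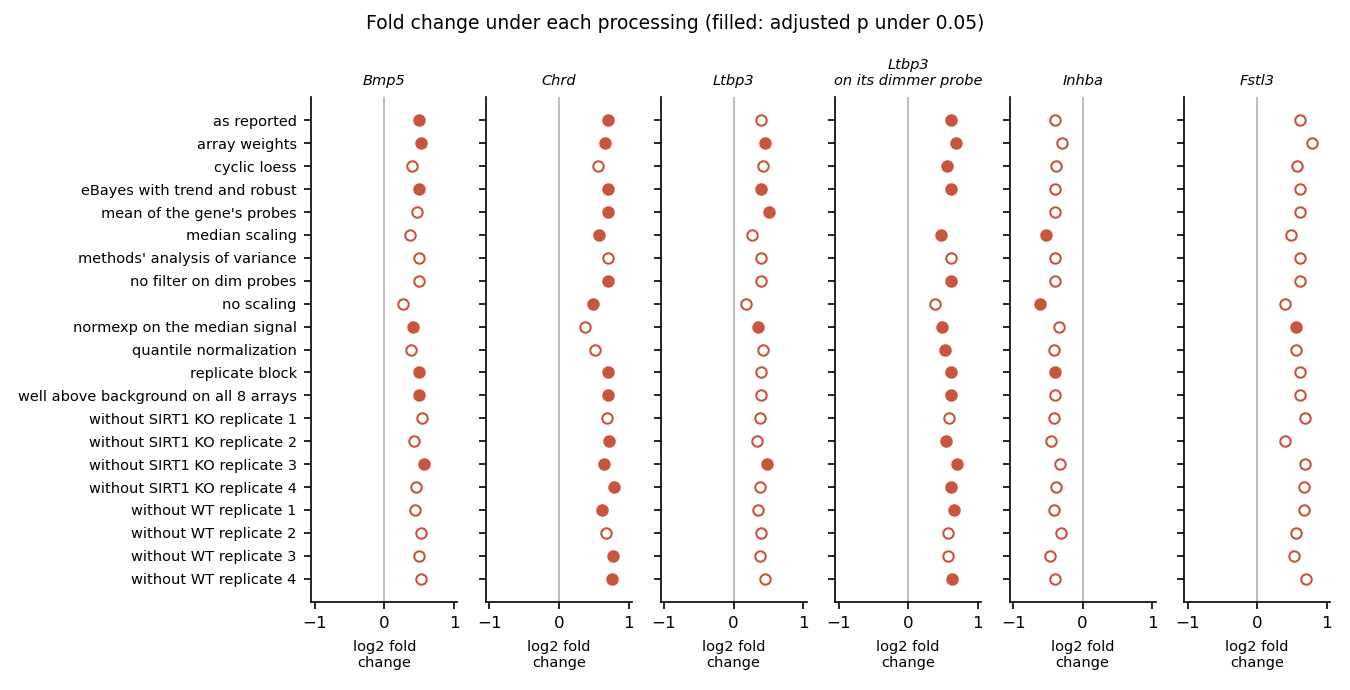
Log2 fold change (x axis) of *Bmp5*, *Chrd*, *Ltbp3* on both probes, *Inhba* and *Fstl3* under the reported processing and each alternative (y axis). Filled points have an adjusted p under 0.05; all points keep the sign of the reported value, and *Chrd* passes in 14 of 20 alternatives and *Bmp5* in 6 of 20.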

How the data were processed

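Gene expression was measured in 8 hearts on one-color arrays. The authors deposited the spot intensity of each array from Agilent Feature Extraction (version 12 per the labels, 12.0.0.7 per the file headers), background-subtracted and not scaled between arrays. The deposited value table of the series equals this intensity in 100% of spots. After removal of control and outlier spots, log2 intensity minus the 75th percentile of the array was taken, and spots of a probe were averaged, giving 41174 probes. Accessions matched RefSeq names (GRCm38.p6) for 28223 probes (68.5%), and the assembly was used for names and promoter windows only.

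The 25615 probes that 4 or more of 8 arrays measured well above background were tested with limma 3.58.1 in R 4.3.3 (lmFit, eBayes) with genotype as the only term and Benjamini-Hochberg adjustment over all of them at 0.05. A gene is reported by its brightest tested probe. The exact two-sided permutation test was used for single genes. Values per heart are given for members called on any probe, not overlapping between genotypes, or with 1 of the 2 smallest p of their role. Other values per heart (*Bmp2*, *Smad7*, *Ltbp2*, a dimmer *Inhbb* probe and, among further pathway genes, *Gdf7* and *Foxh1*) were chosen after they were seen. Further pathway genes are named when past the threshold or, in a role with none, for the smallest p. The members and lists were chosen with earlier results of these data known. In a simulation with 25535 probes, of which 200 were shifted by 1 on the log2 scale, the fit recovered 82% of these and 4.09% of its calls were unchanged probes. That shift is larger than any member's fold change on a brightest probe (at most 0.72). The simulated arrays held no effect of slide or day, so these shares do not carry over to the calls given here. Alternatives covered background correction, scaling, the filter, the test, array weights, the probe rule, a replicate block and each heart left out. Other software was pandas 2.3.3 and numpy 2.4.6 under Python 3.11.15, with matplotlib 3.10.9 for figures.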

Additional observations from a re-analysis of the deposited data

Results flagged for a closer look

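In 9 of 120 groups of 4 hearts (60 member probes in each genotype), 1 heart lay apart from the other 3 by more of the range than Dixon's 95% critical value, which chance gives in about 1 of 20 groups. *Fstl3* in SIRT1 KO replicate 2 read -1.01, with the other SIRT1 KO hearts at -1.88 to -1.83. *Tgfb2* in WT replicate 2 read 1.11, with the other WT hearts at 0.41 to 0.50. *Smad3* in SIRT1 KO replicate 4 read -0.13, with the others at -0.45 to -0.41, and the dimmer *Acvr2a* probe in SIRT1 KO replicate 1 read -2.69, with the others at -2.98 to -2.95. WT replicate 1 was the low heart for *Tgfb1* (-1.51, others -1.38 to -1.37), for the dimmer *Skil* probe (-4.38, others -4.19 to -4.17) and for the dimmer *Ltbp1* probe (-5.63, others -5.18 to -5.15). *Bmpr2* in SIRT1 KO replicate 1 read 2.58, with the others at 2.65 to 2.67, and *Id3* in SIRT1 KO replicate 2 read 2.54, with the others at 2.50 to 2.51.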

How the results depend on the processing

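The count of called member genes, 2 as reported, was 0 under cyclic loess, quantile normalization and the methods' analysis of variance, 1 without a filter on dim probes, 4 without scaling, 4 under normexp on the median signal and 4 with a replicate block, and 0 to 3 with 1 heart left out. The count of called member probes, 3 as reported, was 0 under the analysis of variance, 5 without scaling, 7 under normexp and 5 with the block, and 0 to 4 with 1 heart left out. The further pathway genes gave 3 calls under the analysis of variance, 14 without scaling and 5 with the block against 9 as reported, and 3 to 7 with 1 heart left out. Over all probes 1250 calls became 2131 with array weights, 1904 with median scaling, 546 under the analysis of variance, 6352 without scaling and 2380 under normexp, and 657 to 1825 with 1 heart left out. The members' median moved from 0.04 to -0.0913 with median scaling and -0.178 without scaling, and lay between 0.02 and 0.08 with 1 heart left out.

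Signs turned for *Tgfbr3* (cyclic loess -0.0507, quantile normalization -0.0769, median scaling -0.0358, no scaling -0.122), *Id1* (median scaling -0.0220, no scaling -0.109, normexp -0.0627), *Acvr2b* (no scaling -0.0669, and -0.00019 to 0.24 with 1 heart left out), *Id2* (no scaling -0.0753), *Smad4* (no scaling -0.0663), *Bmp1* (no scaling -0.0246) and *Gdf6* (normexp 0.0225). Dropping the scaling or taking the median moves the fold change of every probe by the same amount, and the cause of the other changes was not tested. Hearts of the same number deviated together by correlations of 0.20, 0.21, 0.06 and 0.14 for replicates 1 to 4, not all over 0.1, so the numbers were not taken as pairs, although 8 of 8 arrays correlated best with their own number. The design speaks of pairs of hearts without saying what a pair shares. With the block 1185 probes were called, and the 4 called members were *Bmp5*, *Chrd*, *Bmp2* (0.36, limma adjusted p = 0.048) and *Inhba*. Normexp on the median signal was chosen after seeing the data, and normexp on the mean signal was not run. The value table of the series gives no separate setting, being equal to the processed signal.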
